A study of Gallus gallus with 16 samples.

Results

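The duodenum of chickens with low residual feed intake (LRFI) was compared with that of chickens with high residual feed intake (HRFI) at day 42. The comparison took every array titled as day 42, which gave 4 LRFI and 4 HRFI arrays out of 16 in the series, and used all 38439 probe sets other than the manufacturer's 96 control sets. The other 8 arrays, 4 LRFI and 4 HRFI from day 35, served to estimate the spread between arrays and for the comparison of days at the end. The labels give the feed intake class, the tissue and the day, and name no treatment, breed, sex or hatch. They do not say whether the classes are bred lines or birds picked from a flock, or whether each array stands for a bird of its own. A p-value here thus reflects how far the arrays of a group vary, some of which may be technical, and the small number of arrays limits the precision.

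Residual feed intake is the part of a bird's feed consumption that its maintenance and growth do not account for, so that an LRFI bird is the more feed-efficient one. The duodenum receives pancreatic juice and bile, and its villi carry enterocytes that digest and absorb sugars, peptides, fats, minerals and vitamins. These cells package fat into lipoproteins, make cholesterol, oxidise fuels in mitochondria and convert foreign compounds, and the crypts between the villi keep dividing to replace them. Each value below is an expression level on a log2 scale, so that a difference of 1 is a 2-fold difference, and every difference is LRFI minus HRFI.

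The markers of intestinal epithelium were bright on all 8 arrays. Villin (VIL1) averaged 12.29 on LRFI and 12.22 on HRFI arrays, apolipoprotein A-IV (APOA4) 14.50 and 14.46, and the intestinal regulator CDX2 11.26 and 11.27. The stomach regulator SOX2 averaged 5.87 on LRFI and 5.89 on HRFI arrays, above the median of all values, 5.07. The hindgut gene HOXD10 averaged 3.26 and 3.43, which is below the 25th percentile of all values, 3.74. The mean of 18 enterocyte markers lay between 12.38 and 12.50 on LRFI arrays and between 12.40 and 12.47 on HRFI arrays, so the ranges overlapped.

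Genes typical of 2 neighbouring organs read higher on LRFI arrays, those of the pancreas on 1 array only. Whether their transcripts came from those organs or from the duodenum itself was not tested. The mean of 17 pancreatic acinar genes was 10.05 on LRFI replicate 2, against 5.06 to 5.27 on the other LRFI arrays and 4.84 to 5.11 on the HRFI arrays. Of these genes 16 had a higher mean in LRFI, and 13 without that array. Trypsinogen (PRSS2), for example, stood at 13.05 on that array and at 4.33 or less on the other LRFI arrays, with 3.14 to 3.71 on HRFI arrays. The pancreas lies in the loop of the duodenum, and several of the results below are therefore given also without LRFI replicate 2. The other values include that array. The mean of 30 genes of secreted liver proteins and liver enzymes, a list drawn up after the values were seen, was 5.61, 7.36, 6.07 and 5.76 on LRFI replicates 1 to 4, against 5.48, 5.49, 5.49 and 5.40 on HRFI replicates 1 to 4. All LRFI arrays thus lay above all HRFI arrays on this list, replicates 2 and 3 most of all. One quality measure separated the groups too. The difference between the probe sets for the 3′ and the 5′ part of GAPDH was 0.36 to 0.40 on LRFI arrays and 0.11 to 0.16 on HRFI arrays, without overlap. That of beta-actin overlapped, with 0.19 to 0.42 on LRFI and 0.20 to 1.20 on HRFI arrays.

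**Figure D1:**
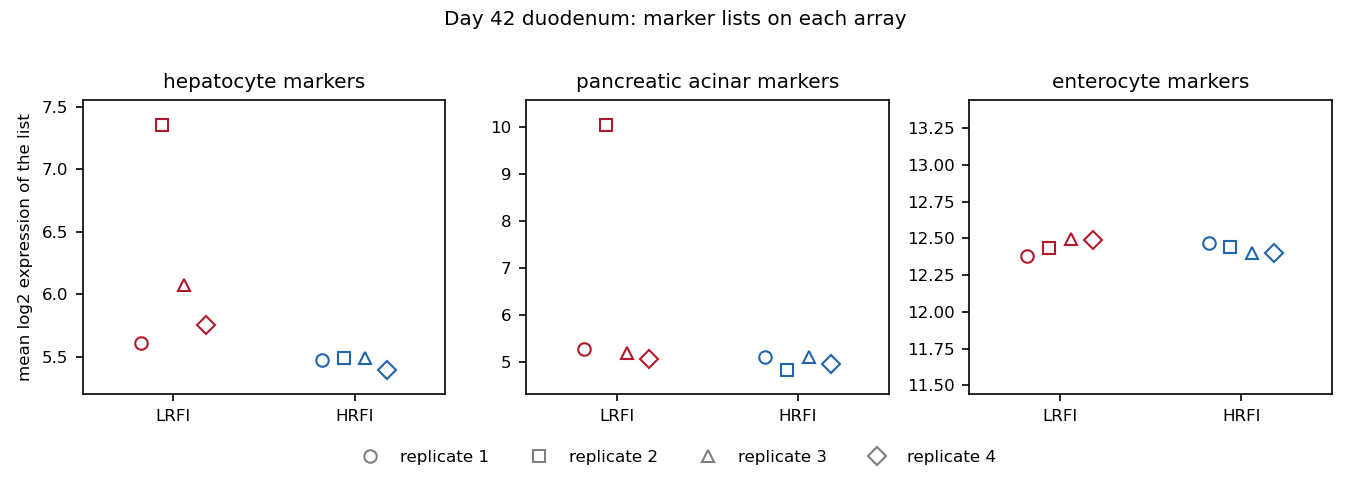
Mean log2 level of the liver (hepatocyte), pancreatic acinar and enterocyte lists on each LRFI and each HRFI array of day 42, with a symbol for each replicate. Pancreatic genes stand at 10.05 on LRFI replicate 2 alone, and the liver list lies above all HRFI arrays on all LRFI arrays, while enterocyte markers overlap.

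The question was which transcripts set the duodenum of LRFI birds apart from that of HRFI birds at this day. Across all probe sets, 1 passed an adjusted p under 0.05 in limma (0.0026% of those tested), and it was higher in LRFI. At an unadjusted p under 0.05 there were 2140 probe sets (5.57%), of which 885 were higher (2.3%) and 1255 lower (3.26%) in LRFI, where chance alone gives 1922. The 4 LRFI arrays did not overlap with the 4 HRFI arrays in 1701 probe sets (4.43%), of which 667 were higher (1.74%) and 1034 lower (2.69%) in LRFI. The standard errors of the differences had a median of 0.12.

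The probe set that passed belongs to the array's transcript cluster Gga.9721 and has no gene name in the annotation used. It read 7.62, 5.77, 6.12 and 5.87 on LRFI replicates 1 to 4, against 3.74, 4.37, 4.04 and 3.39 on HRFI replicates 1 to 4. All LRFI arrays lay above all HRFI arrays by more than a log2 unit, and the HRFI values lay below the median of all values, 5.07. The difference was 2.46 (SE 0.31, adjusted p = 0.0296, limma), a 5.51-fold higher level in LRFI, and it was 2.65 without LRFI replicate 2. Leaving out any single array kept it between 2.04 and 2.65. It passed without LRFI replicate 1, 2 or 4 or HRFI replicate 2 of day 42, and missed the threshold without any other single array of either day, with adjusted p from 0.0538 to 0.208. It also missed it with the day 42 arrays alone (adjusted p = 0.119, limma) and with the GAPDH 3′ to 5′ difference in the fit (adjusted p = 0.955, limma). The difference itself was 2.47 with that GAPDH term. The term and feed intake class cannot be told apart at day 42. The cluster has 2 more probe sets, which were also higher in LRFI without overlap. Their differences were 2.79 (SE 0.58) and 1.16 (SE 0.25), and neither passed (adjusted p = 0.606 for each). At day 35 the probe set that passed differed by 0.24.

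No probe set with a gene name passed. The 12 named genes with the smallest p among those higher in LRFI, and the 12 among those lower, are described next, all with adjusted p between 0.606 and 0.683 in limma. The groups did not overlap for any of these 24, which the choice by p value largely fixes.

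Among the genes with higher values in LRFI, DNAJC15, a co-chaperone of the inner mitochondrial membrane, read 6.63, 6.43, 6.68 and 6.46 on LRFI arrays and 5.77, 6.02, 5.98 and 5.76 on HRFI arrays. The LRFI arrays lay close together and all above the HRFI arrays, by 0.67 on average (SE 0.12). AADAC, an esterase of the endoplasmic reticulum that acts on lipids and drugs, read 7.87, 7.84, 7.99 and 8.13 on LRFI arrays and 7.24, 7.34, 7.35 and 7.11 on HRFI arrays. Its groups were as cleanly apart, with a difference of 0.70 (SE 0.14), and its brighter second probe set differed by 0.76 (SE 0.56) without overlap. The SD of that second set at day 42 was 0.18 in LRFI and 0.20 in HRFI. Its SE also takes in the arrays of day 35, where the HRFI SD was 1.77. With the GAPDH 3′ to 5′ difference in the fit the differences of AADAC were 0.43 and 0.17. TMEM55A, a phosphoinositide phosphatase of endosomes, read 8.60, 8.67, 8.30 and 8.40 on LRFI arrays and 7.03, 8.03, 6.76 and 7.72 on HRFI arrays. Here the HRFI arrays spread over more than a log2 unit and the LRFI arrays did not, and the difference was 1.10 (SE 0.22). CDKL2, a kinase related to the cyclin-dependent kinases, read 8.82, 8.63, 8.53 and 9.04 on LRFI arrays and 7.73, 7.33, 7.86 and 7.39 on HRFI arrays. It differed by 1.18 (SE 0.28), and its other 2 probe sets, at 0.72 and 0.65, did not overlap either.

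The remaining genes of this kind had differences from 0.45 to 2.17. Steroid sulfatase (STS), which frees steroids from their sulfate esters, differed by 1.01, but its second probe set differed by 0.05 with overlapping groups. With the GAPDH 3′ to 5′ difference in the fit these were larger, at 1.74 and 0.91. TMEM135, a membrane protein of peroxisomes and mitochondria in mice, differed by 1.65. Its difference was 0.12 once the GAPDH 3′ to 5′ difference was added to the fit, and 0.23 with overlap at its brighter probe set. STEAP1, of a family of metal reductases, differed by 0.94 and MLF1 by 1.04. NFASC, an adhesion protein of neurons, at 0.53, PM20D2, a peptidase, at 0.70, and POP1, a protein subunit of RNase P, at 0.45 were dim in both groups. The other sets of NFASC differed by 0.17 and 0.08 with overlap. The means of POP1 were 3.75 in LRFI and 3.30 in HRFI, and its other 2 probe sets differed by -0.14 and -0.22.

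**Figure D2:**
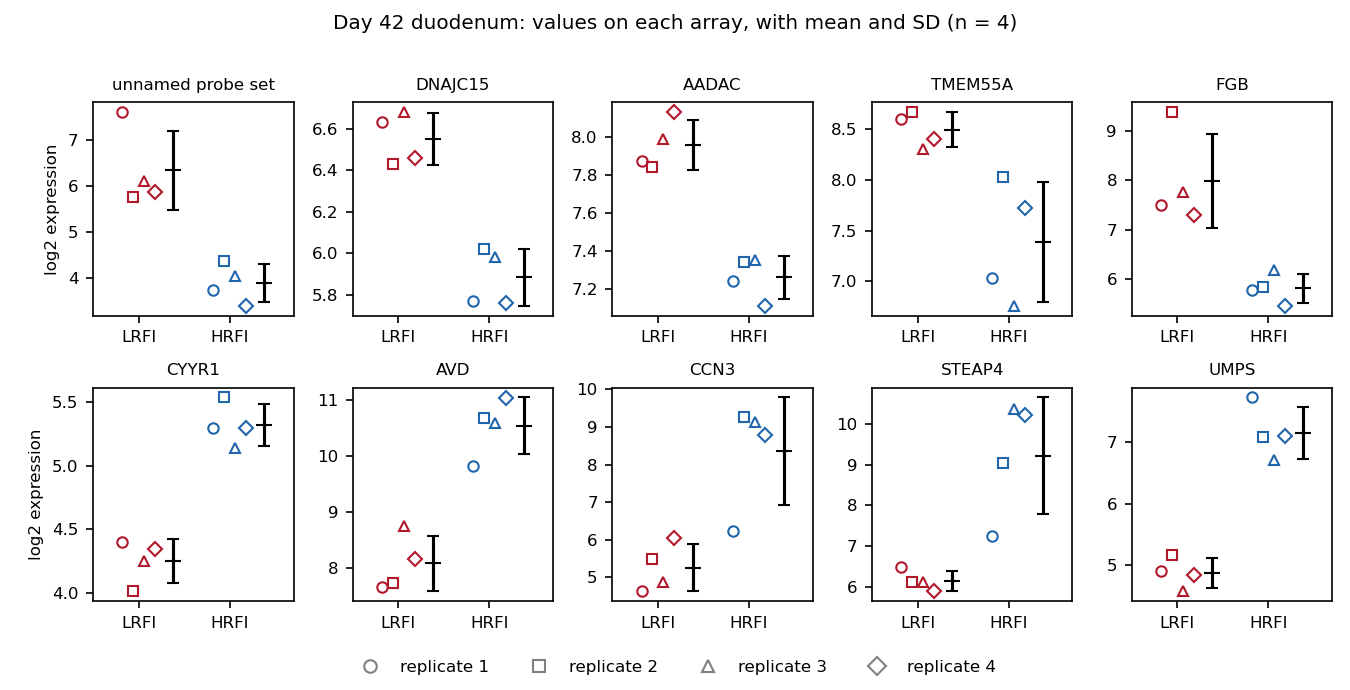
Log2 level on each of the 4 LRFI and 4 HRFI arrays of day 42 (symbols mark replicates 1 to 4) for the probe set that passed and for 9 named genes, with the mean and SD of each group. The groups do not overlap in any panel, and the HRFI arrays of CCN3 and STEAP4 include 1 array well below the other 3.

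FGB, the beta chain of the clotting protein fibrinogen, was both among these 12 and among the 5 named genes with the largest differences without overlap. It read 7.50, 9.38, 7.76 and 7.30 on LRFI arrays and 5.79, 5.84, 6.18 and 5.46 on HRFI arrays. Every LRFI array was more than a log2 unit above the HRFI arrays, with replicate 2 highest, and the difference was 2.17 (SE 0.46), or 1.70 without LRFI replicate 2. Albumin (ALB) read 6.96, 12.03, 9.71 and 7.49 on LRFI arrays and 6.20, 6.16, 4.35 and 4.71 on HRFI arrays. It had the largest difference of all named genes without overlap, 3.69, with a standard error of 1.43 (adjusted p = 0.857, limma), and 2.70 without LRFI replicate 2. The bone matrix phosphoprotein SPP2 read 4.49, 8.08, 5.73 and 4.01 on LRFI arrays and 3.29, 3.85, 3.71 and 3.32 on HRFI arrays. Fetuin-A (AHSG) read 4.33, 8.22, 5.61 and 4.47 on LRFI arrays and 4.10, 3.93, 3.08 and 3.97 on HRFI arrays. In SPP2 and AHSG, LRFI replicates 2 and 3 stood out and replicates 1 and 4 lay just above the HRFI arrays. The differences were 2.03 for SPP2 and 1.89 for AHSG, and 0.70 and 0.63 without both replicates. The antimicrobial peptide AvBD9 had the same profile, with 4.17, 9.20, 5.76 and 4.08 on LRFI arrays and 3.73, 3.82, 3.12 and 3.94 on HRFI arrays. It differed by 2.15, by 1.01 without LRFI replicate 2 and by 0.47 without replicates 2 and 3. With the GAPDH term in the fit AvBD9 differed by 0.65.

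These proteins other than AvBD9 are made chiefly by the liver, and of the 30 liver genes measured 26 had a higher mean in LRFI and 4 a lower one. The median of the 30 differences was 0.45, against -0.01 over all 13009 named genes, and 6 genes lay above all HRFI arrays on all LRFI arrays (1.57% of all genes did so). Besides ALB, FGB, SPP2 and AHSG these were APOH, at 1.80, and the vitamin D carrier GC, at 0.71. The list was drawn up after the values were seen, and the first 4 of these genes were named for lying apart. Its counts are thus a description and no test against the share of all genes. Without LRFI replicate 2 the median was 0.15, with 22 higher and 8 lower, and without replicates 2 and 3 it was 0.10. At day 35 the list ran the other way, with a median difference of -0.32 and 26 of 30 genes lower in LRFI. Its list mean on that day was 6.76 and 6.09 on HRFI replicates 1 and 2, while HRFI replicates 3 and 4, at 5.53 and 5.60, lay within the range of the LRFI arrays, 5.47 to 5.80. With the GAPDH term in the fit the list median of day 42 was 0.07. Differences of ALB, SPP2, AHSG and APOH turned to -0.37, -0.74, -0.28 and -0.23 with it. The GAPDH difference varied little within the groups of day 42, so that this term rests largely on the arrays of day 35. There HRFI replicate 1 had both the highest liver list mean, 6.76, and the highest GAPDH difference, 0.31. The part of liver transcripts or of the GAPDH difference in these values was not tested. In tissue samples such as these, fewer cells of a type and less RNA per cell cannot be told apart.

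Among the genes with lower values in LRFI, CYYR1 read 4.40, 4.01, 4.25 and 4.34 on LRFI arrays and 5.30, 5.54, 5.14 and 5.30 on HRFI arrays. The spread within each group was small, and the difference was -1.07 (SE 0.20). AVD, which codes for the biotin-binding protein avidin, read 7.66, 7.73, 8.74 and 8.16 on LRFI arrays and 9.82, 10.68, 10.59 and 11.03 on HRFI arrays. All LRFI arrays lay more than a log2 unit below all HRFI arrays, and the difference was -2.46 (SE 0.56). AMDHD2, a deacetylase of amino sugar breakdown, differed by -0.54, and its other probe sets by -0.37 and -0.53. USP43, a deubiquitinase, differed by -0.67, and WDYHV1, an enzyme that deamidates N-terminal glutamine, by -0.65. UBXN7, an adaptor of the ubiquitin-directed unfoldase VCP, differed by -0.56 and, in a second probe set without overlap, by -0.72, but by -0.11 to 0.07 at 4 others. SLC22A13L, of a family of organic ion carriers, and THEM4, a thioesterase, differed by -0.51 and -0.45. HYDIN, a protein of motile cilia, differed by -0.43.

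Probe sets of the same gene disagreed for several of these 12. The other sets of USP43 differed by -0.20 to 0.05, that of THEM4 by -0.002, those of HYDIN by -0.16 and -0.06, and those of SLC22A13L by -0.14 and -0.03, all with overlapping groups. GNA13, a G protein subunit, averaged 2.91 in LRFI and 3.97 in HRFI at the chosen probe set (difference -1.06), which is near the dim end of the scale. Its other 3 probe sets differed by 0.35, 0.19 and 0.08. The splicing factor EFTUD2 was as dim, with 3.11 in LRFI and 4.23 in HRFI (difference -1.12), and its brighter probe sets differed by -0.14 and -0.21. IGHMBP2, a helicase, differed by -0.45 at the chosen set and by 0.13 and 0.14 at the others. The brightest of its sets, at 0.13, separated the groups the other way, with 6.64 to 6.67 on LRFI and 6.45 to 6.58 on HRFI arrays.

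The 5 named genes with the largest lower values without overlap were CCN3, STEAP4, AVD, UMPS and GATD3AL2. CCN3, a secreted protein of the extracellular matrix, read 4.64, 5.49, 4.88 and 6.04 on LRFI arrays and 6.24, 9.26, 9.14 and 8.79 on HRFI arrays. The HRFI arrays other than replicate 1 were more than 2 log2 units above every LRFI array, and the difference was -3.10 (SE 0.76, adjusted p = 0.683, limma). A second probe set of CCN3, at 2.73 in LRFI and 2.67 in HRFI near the lower end of the scale, differed by 0.06. STEAP4, an iron and copper reductase, read 6.49, 6.14, 6.12 and 5.90 on LRFI arrays and 7.26, 9.03, 10.35 and 10.21 on HRFI arrays. HRFI replicate 1 was again the lowest of its group. The difference was -3.05 (SE 0.82, adjusted p = 0.758, limma), with -2.97 and no overlap at the second probe set. With the GAPDH term in the fit STEAP4 stood at -5.41 and CCN3 at -4.39. UMPS, which completes the synthesis of the pyrimidine UMP, read 4.91, 5.17, 4.58 and 4.84 on LRFI arrays and 7.73, 7.09, 6.71 and 7.10 on HRFI arrays. Its difference of -2.28 (SE 0.59) at this probe set stood beside -0.29 with overlapping groups at its brighter one, so the size depends on the probe set. GATD3AL2 read 11.02, 11.04, 11.45 and 9.86 on LRFI arrays and 11.74, 12.35, 12.40 and 12.62 on HRFI arrays, a difference of -1.44 (SE 0.46). Leaving out LRFI replicate 2 moved the differences of these 5 genes by little, to between -3.17 and -1.50.

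A fit to the 8 arrays of day 42 alone, with a spread estimated from these arrays only, passed 5 probe sets (0.013%) and not the unnamed one. They were AVD (adjusted p = 0.0352), CYYR1 (adjusted p = 0.0273), UMPS (adjusted p = 0.013), BBS5 (adjusted p = 0.0273) and PARP4 (adjusted p = 0.0176), all from limma. BBS5 and PARP4 come from outside the rule for naming genes. BBS5, a subunit of a transport complex of cilia, read 7.42, 7.59, 7.31 and 7.64 on LRFI arrays and 6.62, 6.55, 6.30 and 6.60 on HRFI arrays, a difference of 0.97. PARP4, the ADP-ribosyl transferase of vault particles, read 4.66, 4.52, 4.67 and 4.74 on LRFI arrays and 3.73, 3.78, 3.87 and 3.63 on HRFI arrays, a difference of 0.90. Both groups were tight for these 2 genes on day 42. With all 16 arrays in the fit the adjusted p was 0.777 for BBS5, 0.796 for PARP4 and 0.758 for UMPS (limma). For AVD and CYYR1 it was 0.683 and 0.606 in that fit. The day 42 fit leaves out the arrays of day 35, where UMPS varied widely within both classes. On that day UMPS read between 4.49 and 7.66 on LRFI arrays and between 4.55 and 6.69 on HRFI arrays.

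Pathways were described by lists of genes, each gene being taken at its brightest probe set, with no test of the list as a whole. Over all 13009 genes, 46.5% had a higher and 53.5% a lower mean in LRFI. The LRFI arrays lay wholly above the HRFI arrays in 1.57% of genes and wholly below them in 2.85%, and without LRFI replicate 2 these shares were 3.38% and 6.1%. An unadjusted p under 0.05 was reached by 2.21% of genes on the higher side and 3.37% on the lower side. No member of any list passed the adjusted threshold.

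Genes of cholesterol synthesis and uptake had lower means in LRFI in 16 of 20 cases, with a median difference of -0.34, the largest lower median among the lists. FDPS, which makes farnesyl diphosphate, read 9.92, 9.94, 9.22 and 9.01 on LRFI arrays and 10.77, 10.07, 10.51 and 10.41 on HRFI arrays, a difference of -0.92 (SE 0.28, adjusted p = 0.796, limma). Its groups did not overlap, with LRFI replicates 3 and 4 lowest. Squalene epoxidase (SQLE), at -0.72, lanosterol synthase (LSS), at -0.56, and the sterol carrier STARD4, at -0.36, were likewise lower without overlap, though other probe sets of LSS, at -0.46 and -0.005, overlapped. The early enzymes HMGCS1, at -0.82, and ACAT2, at -0.45, overlapped, as did the feedback protein INSIG1, at -0.40, and the dimmer sets of ACAT2 differed by -0.06 and -0.001. Of the 20 genes, 5 had an unadjusted p under 0.05, all on the lower side. PMVK had a higher mean, by 0.49, and the regulator SREBF2 differed by -0.09. The list mean was 9.68, 9.65, 9.16 and 9.39 on LRFI arrays and 9.88, 9.81, 9.70 and 9.61 on HRFI arrays, which overlapped. LRFI replicate 3 carried much of the shift, and the median was -0.14 without it and -0.33 without replicate 2.

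Genes of fatty acid synthesis split evenly, 7 higher and 8 lower, around a median of -0.03. Malic enzyme (ME1), a source of NADPH, averaged 11.13 ± 0.22 on LRFI and 10.66 ± 0.17 on HRFI arrays (SD, n = 4 each), a difference of 0.47 without overlap. GPAM, the first acyltransferase of glycerolipid synthesis, also differed by 0.47 without overlap, at a dim level, and by -0.13 with the GAPDH term in the fit. The elongase ELOVL6 averaged lower, by -0.33, with overlap. Fat uptake and lipoprotein assembly had 15 of 22 genes higher in LRFI, with a median of 0.06. The fatty acid transporter SLC27A4 averaged 9.69 ± 0.25 on LRFI and 9.18 ± 0.19 on HRFI arrays (SD, n = 4 each). The groups were apart, though by little between the nearest arrays, and both of its probe sets showed this, with differences of 0.52 and 0.63, or 0.13 and 0.37 with the GAPDH term in the fit. MTTP, which loads lipid onto apolipoprotein B, differed by 0.71 and DGAT2, of triglyceride synthesis, by 0.70, both with overlap. The second set of MTTP differed by 0.27 and that of DGAT2 by -0.04. MOGAT1, of monoacylglycerol re-esterification, differed by -1.75. Its LRFI arrays lay between 5.13 and 5.90, 3 HRFI arrays between 7.68 and 8.62, and HRFI replicate 3 below them all at 4.96. The other, dim sets of MOGAT1 differed by -0.12 and -0.14.

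Subunits of oxidative phosphorylation had lower means in LRFI in 56 of 65 cases. The median was -0.12, and 9 of the 65 subunits lay wholly below the HRFI arrays, beside 2.85% of all genes. The list mean was 11.28, 11.25, 11.22 and 11.13 on LRFI arrays and lay between 11.31 and 11.35 on HRFI arrays. The groups did not overlap, but the gap to the nearest LRFI array was small. Single members differed little, for example ATP5C1 of ATP synthase by -0.25, NDUFA12 of complex I by -0.31 and ATP5H by -0.19, each without overlap. Without LRFI replicate 4 the median was -0.07, and without replicate 2 it was -0.12. In the latter setting 12 of 65 subunits lay wholly below, beside 6.1% of all genes. The citric acid cycle had 11 genes higher and 7 lower (median 0.03), or 9 and 9 without LRFI replicate 2. Mitochondrial fatty acid oxidation had 9 and 4 (median 0.03), or 7 and 6 without that array, and glycolysis 7 and 15 (median -0.04). Within these, HADHB of the trifunctional protein, at 0.23, and the phosphoenolpyruvate carboxykinase PCK2, at 0.45, lay above the HRFI arrays without overlap, and G6PC, at -0.25, below them. With the GAPDH term HADHB turned to -0.22 and G6PC to 0.12, and PCK2 stood at 0.13.

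Heat shock proteins had lower means in LRFI in 24 of 29 cases, with a median of -0.11, or 22 of 29 and -0.15 without LRFI replicate 2. The list mean was 9.22 to 9.36 on LRFI arrays and 9.40 to 9.47 on HRFI arrays, without overlap. AHSA1, an activator of HSP90, read 10.30, 10.33, 10.43 and 10.27 on LRFI arrays and 10.85, 10.68, 10.73 and 10.66 on HRFI arrays, a difference of -0.40, beside -0.09 at a dim second set. The mitochondrial co-chaperonin HSPE1 differed by -0.18 without overlap, and DNAJA4 and CHORDC1 by -0.41 and -0.43 with overlap. The chaperones of the endoplasmic reticulum had 14 of 23 lower, with a median of -0.07, or 13 and -0.06 without LRFI replicate 2. HSP90B1, at -0.35, HSPA5, at -0.20, and HYOU1, at -0.19, lay below the HRFI arrays without overlap, HYOU1 by less than the second decimal shows. In the proteasome 24 of 31 subunits had lower means, with a median of -0.07 and 0 wholly below the HRFI arrays, while PSMD13 lay above the HRFI arrays, at 0.33. Without LRFI replicate 2 the proteasome median was -0.13 and 11 of 31 subunits lay wholly below. Over all genes that share was 6.1% without replicate 2 and 2.85% with it.

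**Figure D3:**
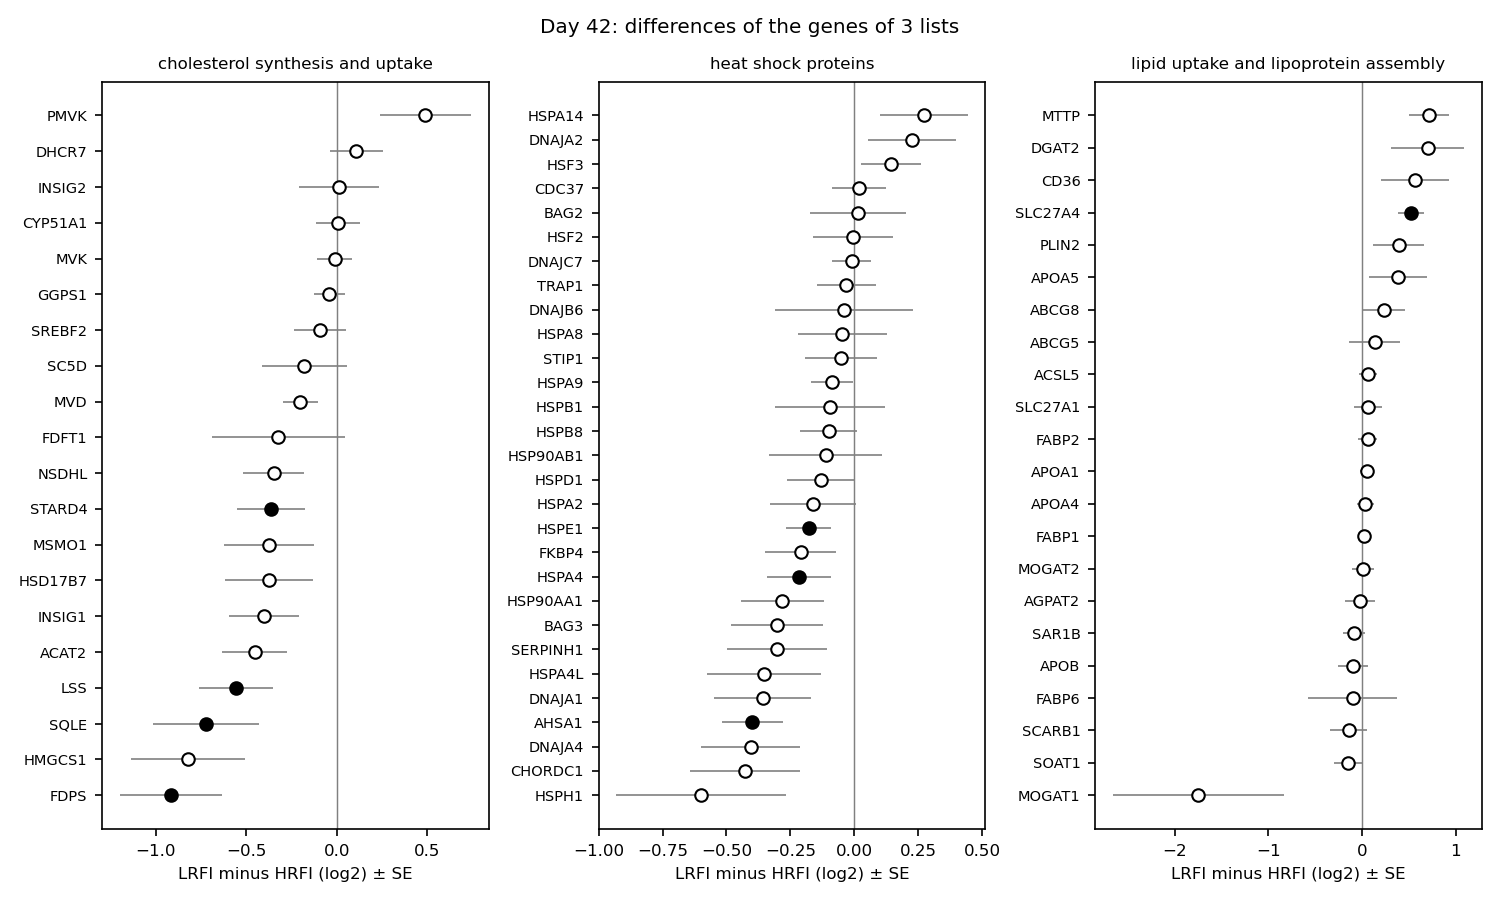
LRFI minus HRFI differences (log2, with SE) of single genes at day 42 in the lists of cholesterol synthesis and uptake, heat shock proteins, and lipid uptake and lipoprotein assembly, with filled points where the 4 LRFI and 4 HRFI arrays do not overlap. Most genes of the first 2 lists lie below 0, with FDPS at -0.92 and AHSA1 at -0.40, and most of the third lie above 0, with SLC27A4 at 0.52.

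Genes of xenobiotic metabolism ran the other way, with 34 of 49 higher in LRFI and a median of 0.09. Of the 49, 6 lay wholly above the HRFI arrays and 0 wholly below, beside 1.57% and 2.85% of all genes. The list mean was 10.21 to 10.35 on LRFI and 10.05 to 10.16 on HRFI arrays, without overlap. Besides AADAC and STS, the 6 were the drug-oxidising CYP3A5, at 0.31, CYP2AC1, at 0.82, and the efflux pumps ABCG2, at 0.24, and ABCB1LA, at 0.35. CYP2C18 read 12.83, 12.97, 12.07 and 12.59 on LRFI arrays and 11.88, 12.08, 10.87 and 11.46 on HRFI arrays, a difference of 1.04 in which only the lowest LRFI array reached the HRFI range, and its second set differed by 1.38 without overlap. Many of these genes are active in liver too. The liver list above, drawn up after the values were seen, had means of 5.61 or more on LRFI and 5.49 or less on HRFI arrays. Without LRFI replicate 2 the count was 27 higher and 22 lower and the median 0.06. In that setting 7 genes lay wholly above and 4 wholly below the HRFI arrays, beside 3.38% and 6.1% of all genes. With the GAPDH term in the fit the median was 0.003. The part of the liver transcripts or of the GAPDH difference in this result was not tested.

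Transport and digestion genes had small medians, with more genes higher than lower in each list. Sugar transport and disaccharidases had 7 higher and 6 lower (median 0.02), peptide and amino acid transport with brush border peptidases 22 and 12 (median 0.03), and mineral and vitamin transport 25 and 17 (median 0.02). Without LRFI replicate 2 these counts were 9 and 4 (median 0.02), 22 and 12 (median 0.08), and 24 and 18 (median 0.01). Sucrase-isomaltase (SI) averaged 13.31 in LRFI and 13.36 in HRFI. The thiamine transporter SLC19A3 stood out, with 8.07, 7.57, 8.15 and 7.35 on LRFI arrays and 7.12, 6.93, 6.64 and 6.02 on HRFI arrays. All LRFI arrays lay above all HRFI arrays, the difference was 1.11 (SE 0.27, adjusted p = 0.683, limma), and the second probe set differed by 0.77 with overlap. Enteropeptidase (TMPRSS15), the brush border activator of trypsinogen, differed by 0.95, and the metallothioneins MT3 and MT4 by 0.99 and 0.41, all with overlap.

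Genes of cell division and DNA replication had lower means in LRFI in 42 of 54 cases, with a median of -0.13. Wholly below the HRFI arrays lay 4 of them, beside 2.85% of all genes. Without LRFI replicate 2 the median was -0.19, with 50 of 54 lower. In that setting 12 lay wholly below the HRFI arrays, beside 6.1% of all genes. The mitotic motor KIF11, at -0.34, the centriole kinase PLK4, at -0.40, and the spindle protein NUSAP1, at -0.28, lay wholly below the HRFI arrays. The list mean ranged from 7.13 to 7.47 on LRFI arrays and from 7.34 to 7.54 on HRFI arrays and overlapped. The nearest arrays of NUSAP1 both read 7.81. With the GAPDH term in the fit the list median turned to 0.15 and NUSAP1 to 0.25. Markers of crypt and stem cells had a median of -0.09 with 11 of 15 lower, and goblet cell markers one of -0.13 with 5 of 8 lower. Without LRFI replicate 2 these were -0.04 with 9 of 15 lower and -0.12 with 5 of 8 lower. The crypt median was 0.03 without LRFI replicates 2 and 3, and 0.11 with the GAPDH term. The stem cell regulator ASCL2 differed by -0.24 and the goblet cell disulfide isomerase AGR2 by -0.29, both with overlap.

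The immune lists differed in direction. Inflammatory mediators had 30 of 44 lower, with a median of -0.07. Beside 2.85% of all genes, 5 of the 44 lay wholly below the HRFI arrays. AVD, described above, is one of these and ACOD1, the itaconate-producing enzyme, at -0.18, is another. The lysozyme LYG2 read 9.57, 7.48, 8.85 and 8.92 on LRFI arrays and 9.08, 10.84, 10.83 and 11.02 on HRFI arrays, a difference of -1.74 in which HRFI replicate 1 lay among the LRFI arrays. The liver acute-phase protein ORM1 went the other way by 1.16, and by 0.54 without LRFI replicate 2. Macrophage and granulocyte markers had 14 of 22 lower (median -0.11), and the complement genes C1QA and C1QB lay wholly below the HRFI arrays, at -0.45 each, C1QA turning to 0.20 with the GAPDH term. C1QB read 10.21, 10.17, 10.34 and 10.18 on LRFI arrays and 10.60, 10.51, 10.68 and 10.93 on HRFI arrays. The class II antigen-loading gene DMA differed by -0.49 without overlap, and by -0.19 without LRFI replicates 2 and 3. T and NK cell markers had 12 higher and 10 lower (median 0.07), with the receptor CD5 at 0.61 and granzyme A (GZMA) at -0.55. Without LRFI replicate 2 they had 15 and 7 (median 0.08), and macrophage and granulocyte markers 6 and 16 (median -0.06). Defensins and antimicrobial peptides had 10 of 16 higher, with a median of 0.12 that was -0.01 without LRFI replicate 2. Interferon-response genes had 17 of 30 higher (median 0.02, and 0.21 without that array), and none of them was apart between the groups.

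The remaining lists had small medians. Tight and adherens junctions had 19 of 25 genes higher (median 0.10), with E-cadherin (CDH1) at 0.19 above all HRFI arrays and CLDN18 at -0.22 below them. Antioxidant and redox enzymes had 17 higher and 12 lower (median 0.03), with superoxide dismutase (SOD1) at 0.20 and the pentose phosphate enzyme PGD at -0.25, both without overlap. Cytosolic ribosomal proteins (31 higher, 28 lower), clock genes (10 and 8) and energy-sensing genes (20 and 21) had medians of 0.01, 0.04 and -0.005. Antigen presentation had 4 higher and 8 lower (median -0.07). Among the markers of other cells, fibroblast and matrix genes had 26 of 39 higher (median 0.13), smooth muscle 11 of 18 (0.05), erythrocytes 7 of 12 (0.04) and enteric neurons and glia 11 of 23 (-0.01). Endothelium had 6 of 18 higher (-0.03), enteroendocrine cells 6 of 20 (-0.04), B and plasma cells 4 of 13 (-0.07) and the factors of duodenal position 4 of 10 (-0.01). Without LRFI replicate 2, enteroendocrine markers turned to 13 higher and 7 lower (median 0.02). Antigen presentation then had 6 and 6 (median -0.01), antioxidant and redox enzymes 14 and 15, and ribosomal proteins 26 and 33. Junction genes stayed at 19 of 25 higher, and fibroblast and matrix genes had 28 of 39 higher.

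**Figure D4:**
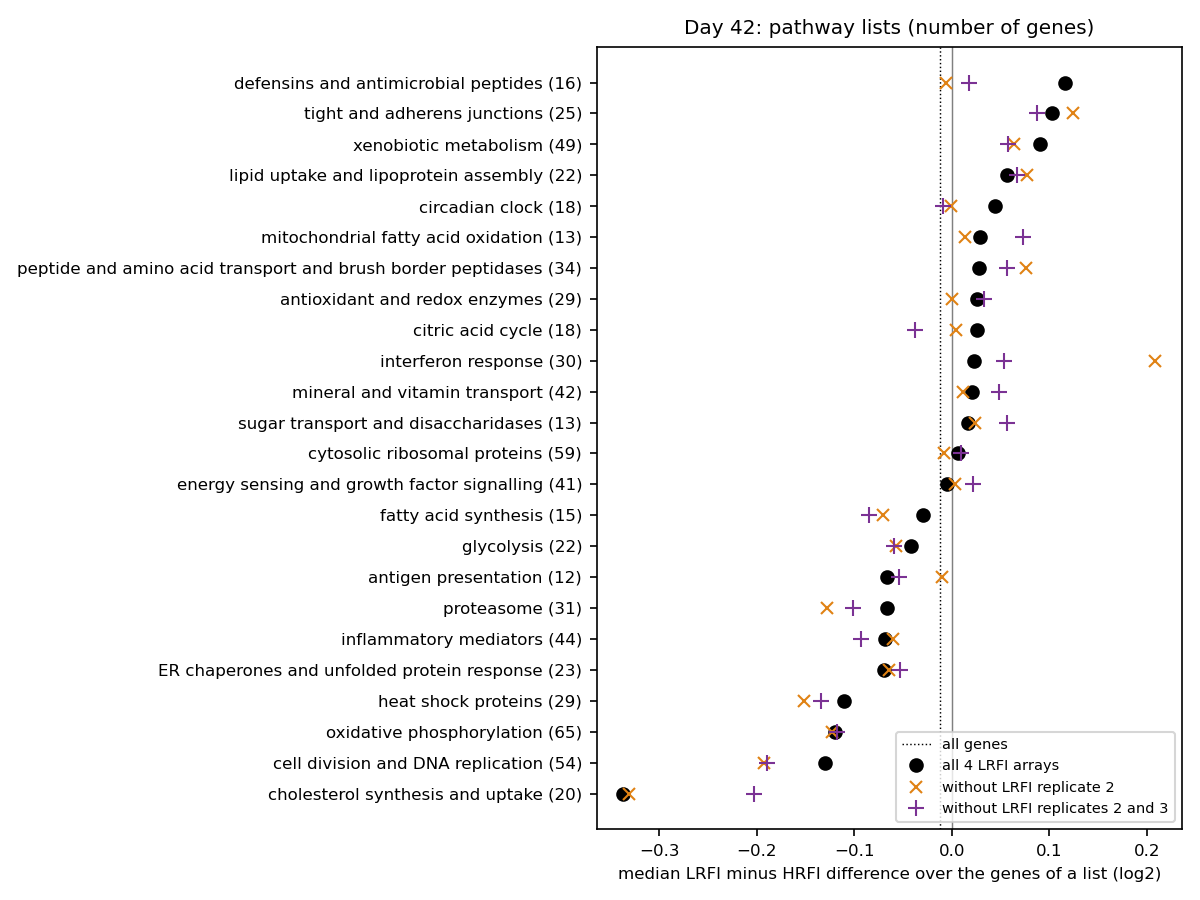
Median LRFI minus HRFI difference (log2) of each pathway list at day 42 with all 4 LRFI arrays, without LRFI replicate 2, and without LRFI replicates 2 and 3, with a dotted line for all genes. The median of cholesterol genes is -0.34, -0.33 and -0.20 in these settings, and that of interferon-response genes is 0.02, 0.21 and 0.05.

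The same lists and genes were set beside their values at day 35, and the difference between days was tested as an interaction in the same fit. It passed for no probe set (adjusted p under 0.05 in limma), and 2438 probe sets (6.34%) had an unadjusted p under 0.05. Several lists with lower medians at day 42 had higher ones at day 35. Cell division genes were at 0.30 on day 35, chaperones of the endoplasmic reticulum at 0.31, heat shock proteins at 0.21 and cholesterol genes at 0.12. On that day HRFI replicate 3 had a pancreatic list mean of 12.39, against 5.61 or less on the other arrays, and it was the lowest array for the means of heat shock proteins, at 8.89, and endoplasmic reticulum chaperones, at 9.18. LRFI replicates 3 and 4 were the highest for cell division genes, at 7.84 and 7.74, against 7.21 and 7.25 on the other LRFI arrays. The beta-actin 3′ to 5′ difference was 1.13 to 2.07 on those 3 arrays and HRFI replicate 2, against 0.21 to 0.29 on the other arrays of that day. The part of either in the medians of day 35 was not tested. Among the genes, AVD differed in opposite directions on the 2 days. It read 8.41, 9.63, 11.98 and 11.29 on LRFI arrays of day 35 and 8.10, 7.37, 8.22 and 8.31 on HRFI arrays of that day, so that LRFI was higher by 2.33, and its interaction was -4.78 (adjusted p = 0.354). GATD3AL2 differed by 1.40 at day 35 (interaction -2.84, adjusted p = 0.539), and LYG2 by 2.75 (interaction -4.48, adjusted p = 0.539). HYOU1 differed by 0.63 at day 35, with an interaction of -0.82 (adjusted p = 0.518). STEAP4 kept its direction, with -1.89 (SE 0.82) at day 35, but its groups overlapped on that day. Its LRFI arrays read 8.87, 8.36, 4.62 and 6.42 and its HRFI arrays 10.43, 7.95, 8.22 and 9.21. At the chosen probe sets THEM4 also kept its direction, with -0.22 and no overlap, and STS did with 0.65 and overlap. CCN3 differed by 0.03 at day 35. Of 32 genes named by p or by size at day 42, 15 had the opposite sign at day 35. The same share was not taken over all genes, so this count does not show a reversal between the days.

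**Figure D5:**
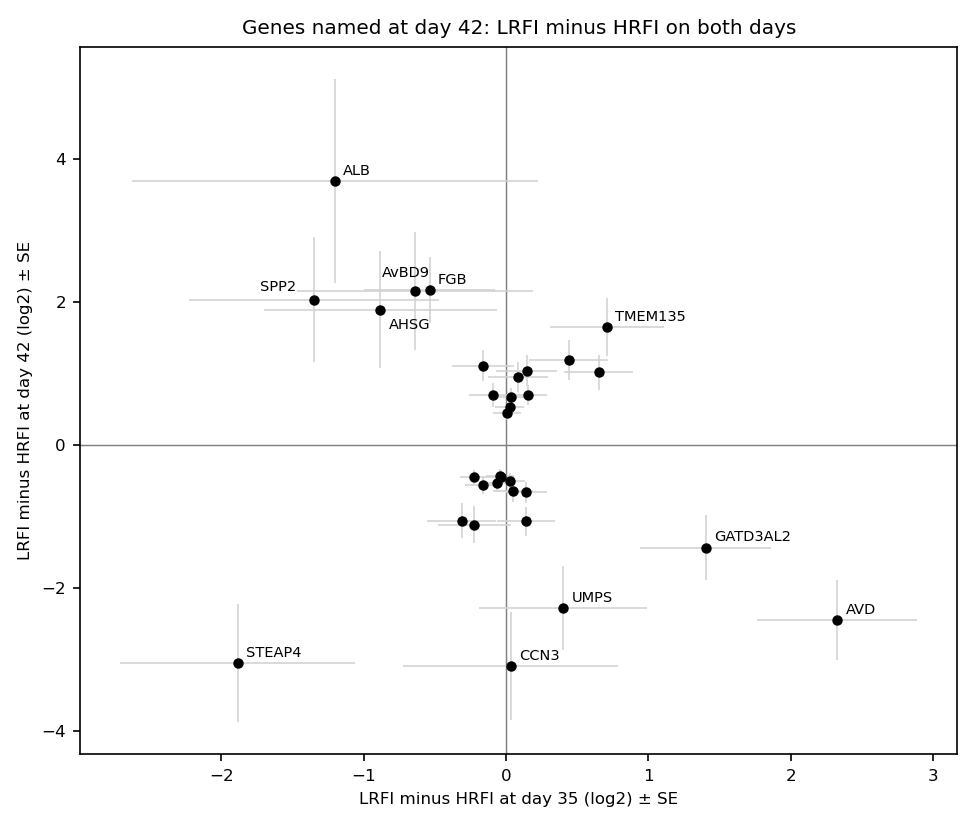
LRFI minus HRFI difference (log2, with SE) at day 42 against that at day 35 for the genes named by p or by size. AVD and GATD3AL2 lie at -2.46 and -1.44 on day 42 and at 2.33 and 1.40 on day 35, while STEAP4 lies below 0 on both days.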

How the data were processed

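Total RNA from chicken duodenum was hybridised to one-colour Affymetrix arrays. The deposited values are log2 expression levels per probe set, made by the authors with Partek 6.5 and RMA (background correction, quantile normalization and summary of probes), per the submitters' processing notes. They were used as deposited. RMA compresses the differences of dim probe sets. Arrays have no read depth. The medians of the 8 day 42 arrays lay between 5.05 and 5.08 and single values between 2.10 and 14.75.

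The platform annotation gave 1 symbol to 27168 of the 38439 probe sets tested, more than 1 to 177 and no symbol to 11094, and named 13009 genes in all. Through Entrez identifiers, 26853 probe sets were found in RefSeq's gene list of the assembly GRCg7b, used for names only, which changed 0 symbols. Sequences were not used here.

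All 16 arrays were fitted together, with a mean for each of the 4 groups, in limma 3.58.1 (lmFit and eBayes) in R 4.3.3, with data.table (version 1.17.8) to read the values, and the Benjamini-Hochberg adjustment covered all probe sets, with a threshold of 0.05. The interaction is the day 42 difference minus the day 35 difference. The fit was tested on simulated data first. Tables and figures were made with Python 3.11.15, pandas 2.3.3, numpy 2.4.6 and matplotlib 3.10.9.

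Genes were named by a rule, skipping uncharacterized loci. It took the probe set that passed, the 12 named genes with the smallest p in each direction, the 5 with the largest difference in each direction among those without overlap, and up to 4 members with the smallest p in each of 38 gene lists. Other list members, BBS5, PARP4 and the liver list (list 39) were picked with their values already in view. The members and lists were chosen with earlier results of these data known.

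The alternatives were the day 42 arrays alone, a replicate block, trend and robust variances, array weights, centring and repeated quantile normalization. Others were a filter at the median level, RNA quality covariates and leaving out arrays. For lists only, a gene's probe sets were also averaged.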

Additional observations from a re-analysis of the deposited data

Results flagged for a closer look

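In 260 groups of 4 arrays, 17 held 1 array far from the other 3 of its group, a distance that chance gives in about 5% of groups. Among genes of lipid handling and matrix, ME1 and MTTP were highest on LRFI replicate 3, at 11.46 and 10.46, against at most 11.05 and 9.97 on the other LRFI arrays. CCN3 was lowest on HRFI replicate 1, at 6.24, against 8.79 or more on the other HRFI arrays, and LYG2 was lowest on the same array, at 9.08, against 10.83 or more. C1QA was highest on HRFI replicate 4, at 10.12, and GZMA lowest on HRFI replicate 3, at 13.11. KIF11 was highest on HRFI replicate 3, at 7.74.

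Smaller departures were those of PM20D2 on LRFI replicate 3, at 4.43, USP43 on LRFI replicate 3, at 6.78, EFTUD2 on LRFI replicate 1, at 3.56, and HYDIN on LRFI replicate 2, at 5.40, and HRFI replicate 4, at 5.94. Of the list means, that of pancreatic acinar genes was 10.05 on LRFI replicate 2, against at most 5.27 on the other LRFI arrays, and that of defensins and antimicrobial peptides was 7.41 on the same array. The mean of duodenal position factors was 7.31 on LRFI replicate 3. That of T and NK cell markers was 6.65 on HRFI replicate 3, and that of liver genes was 5.40 on HRFI replicate 4, the lowest of its group.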

How the results depend on the processing

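The text gives the differences of 91 probe sets, 1 for each gene, BBS5 and PARP4 not included. Many were named for a small p or for groups without overlap. Leaving out arrays cannot turn the sign where groups do not overlap. Each gene was followed at 1 fixed probe set, and averaging a gene's probe sets was run for the lists only. All other probe sets of GNA13, POP1 and IGHMBP2, for example, had the opposite sign. Of the 91, 82 kept their direction in all settings run at these fixed probe sets. The exceptions came with the GAPDH 3′ to 5′ difference as a covariate, which separated the groups at day 42, so that it and feed intake class cannot be told apart there: ALB -0.37, SPP2 -0.74, AHSG -0.28, APOH -0.23, GPAM -0.13, HADHB -0.22, NUSAP1 0.25, C1QA 0.20 and G6PC 0.12. The same covariate moved list medians to 0.003 for xenobiotic metabolism, 0.25 for sugar transport, -0.10 for mineral and vitamin transport, 0.15 for cell division, 0.025 for inflammatory mediators, 0.11 for crypt and stem cell, 0.26 for T and NK cell, 0.10 for macrophage and granulocyte, 0.44 for fibroblast and matrix, 0.40 for smooth muscle and 0.23 for endothelium markers. The cause was not tested. With the 8 day 42 arrays alone the 1 passing probe set of day 42 no longer passed, and 5 others did. There were 0 passing without the 2 arrays with pancreatic signal, with trend and robust variances and with the GAPDH covariate. Without LRFI replicates 2 and 3 (chosen after seeing the data) 0 passed as well. With probe sets above the median level only there were 0 too. That filter removed the passing probe set, at percentile 41.4 of mean level, before the test, so it could not pass there. Leaving out single arrays gave 0 to 1. The interaction passed for 1 probe set with array weights and 1 with repeated quantile normalization, and for 0 to 8 with single arrays left out (8 without LRFI replicate 1 of day 35), against 0.

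Whether the replicate numbers pair the arrays is not known. Same-numbered LRFI and HRFI arrays of day 42 correlated at -0.05 to 0.06 in their deviations from the group means. For 0 LRFI arrays was the HRFI array of the same number the best match. These correlations show no pairing but cannot exclude one. With the replicate block 0 probe sets passed.

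Of 39 list medians, 23 moved in no setting by more than the spread between arrays. They include the pancreatic and liver lists, whose spread LRFI replicate 2 itself widens. Without that array the pancreatic median went from 1.385 to 0.135 and the liver median from 0.447 to 0.145, so these 2 do depend on it. Without the 2 pancreatic arrays that of the proteasome was -0.13. Without LRFI replicates 2 and 3 they were -0.24 for goblet cell, 0.031 for crypt and 0.073 for endothelium markers, and averaging a gene's probe sets gave -0.017 for crypt markers. With single arrays left out the median ranged from -0.40 to -0.14 for cholesterol genes (-0.14 without LRFI replicate 3), -0.15 to -0.07 for oxidative phosphorylation (-0.07 without LRFI replicate 4), -0.128 to -0.033 for the proteasome (-0.128 without LRFI replicate 2), -0.134 to -0.049 for inflammatory mediators (-0.134 without HRFI replicate 2), -0.028 to 0.042 for enterocyte (-0.028 without HRFI replicate 4) and -0.179 to -0.016 for goblet cell markers (-0.016 without LRFI replicate 1).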
